A study of Bos taurus with 16 samples.

Results

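The insulin-like growth factor (IGF) axis was followed in the bovine corpus luteum through 7 genes: the binding proteins IGFBP2, IGFBP3, IGFBP5 and IGFBP6, the protease PAPPA, the ligand IGF1 and its receptor IGF1R. They were found by gene name, accession or description on a custom 1-colour array, where they hold 8 of 15208 probes. Of these probes, 6 were bright enough to be tested, 1 for each gene except IGF1, among 11941 probes tested in all. The glands came from 16 Japanese Black cows, all untreated as far as the labels say, with 4 animals per group: a cyclic group sampled 10-12 days into the estrous cycle, and 3 pregnant groups sampled on days 20-25, on days 40-45, or late on days 150-160, counted with insemination as day 1. Pregnant groups were also sampled later after ovulation than the cyclic one, so the effect of pregnancy and that of an older gland cannot be told apart.

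IGF1 and IGF2 are secreted peptides that act on luteal cells through IGF1R, a receptor tyrosine kinase, and in the cow IGF1 stimulates progesterone secretion by luteal cells. The IGFBP family binds the peptides outside the cell, where it can carry them, hold them at the matrix or keep them from the receptor. PAPPA, a secreted metalloprotease, cuts certain IGFBPs and so releases their ligand.

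Values are log2 signals relative to the 75th percentile of the same array, so a difference of 1 is a 2-fold difference for that probe. Levels of different probes were not set against each other. That percentile ranged over 2020.5 to 4288.4 signal units, and each array had 71.9% to 79.6% of its probes well above background. Each of 2 slides, scanned separately, held 2 cows of every group. Each group always took the same places on a slide, so a place effect and a group effect cannot be told apart. All 5 markers of luteal steroidogenic cells (STAR, CYP11A1, HSD3B1, LHCGR and SCARB1) were well above background, and limma called 0 of them in any comparison with cyclic cows (at an unadjusted p under 0.05, 1 on days 20-25 and 0 at the later stages). Of 11941 probes tested, comparison with cyclic cows called 0.293% for days 20-25, 1.23% for days 40-45 and 7.98% for days 150-160, at an adjusted p under 0.05 from limma with Benjamini-Hochberg adjustment.

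Against that background, 1 of 6 tested IGF axis probes was called on days 20-25, 2 of 6 on days 40-45 and 4 of 6 on days 150-160. Between stages of pregnancy 0 of 6 were called, where 0.0335% of all probes were called for days 40-45 against days 20-25, 0.0419% for days 150-160 against days 40-45 and 1.57% for days 150-160 against days 20-25. At an unadjusted p under 0.05 in limma 1, 2 and 3 of 6 passed in those comparisons, and by the exact permutation test 1, 1 and 0. The shares of all probes just given are for adjusted p and are no background for these unadjusted counts. Unadjusted, far more probes passed in limma. PAPPA, which passed, ranked 581 of 11941 for days 40-45 against days 20-25, and 1474 of 11940 for days 150-160 against days 20-25. IGFBP2, which passed for days 150-160 against days 40-45, ranked 114 of 11940. The moderated F test over the 4 groups called 4 of 6, against 3.85% of all probes. The 4 genes were IGFBP6, IGFBP5, IGFBP2 and PAPPA. The probes that measured them are shown because each is the only probe found by name for its gene, and a value refers to the transcripts that carry it. They are 60 bases long and written 5′ to 3′ as in the scanner files:
IGFBP6: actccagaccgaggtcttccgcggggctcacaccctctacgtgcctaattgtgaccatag
IGFBP5: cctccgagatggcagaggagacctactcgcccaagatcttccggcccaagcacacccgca
IGFBP2: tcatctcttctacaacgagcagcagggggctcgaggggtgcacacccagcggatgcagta
PAPPA: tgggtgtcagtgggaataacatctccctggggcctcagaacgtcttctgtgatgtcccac
Their G and C content was 58.3%, 63.3%, 60.0% and 55.0% in that order. The longest run of letters that each shared, as written, with any other probe on the array was 12, 12, 13 and 11 bases. IGFBP2 and IGFBP5 are next to each other on chromosome 2 in the RefSeq annotation of ARS-UCD2.0.

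**Figure D1:**
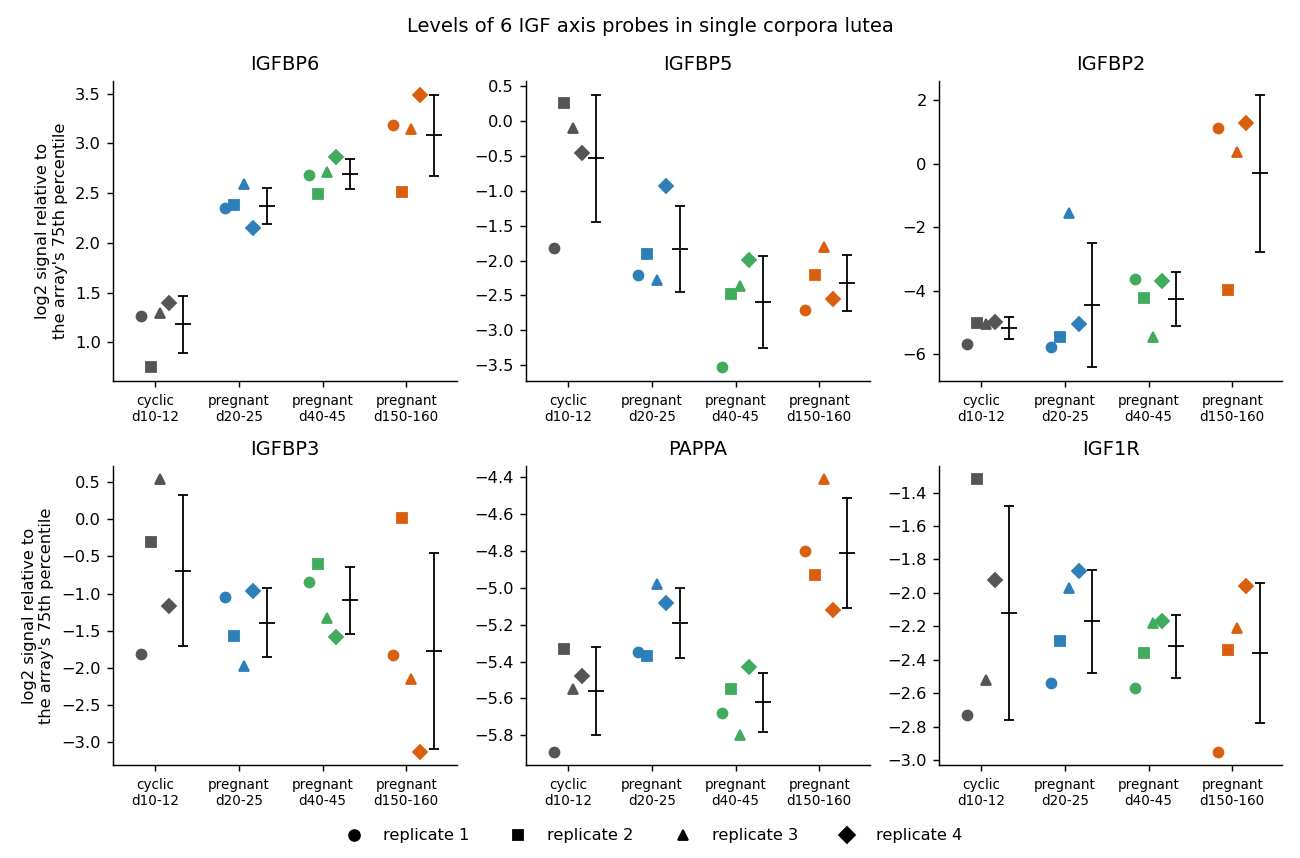
Log2 signal relative to the array's 75th percentile of the 6 tested probes in each of 16 cows, by group; symbols mark replicates, and the bar beside each group is its mean ± SD (n = 4). All 12 pregnant cows lie above the 4 cyclic cows for IGFBP6, and 3 of 4 cows on days 150-160 lie far above the rest for IGFBP2.

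IGFBP6, a binding protein with preference for IGF2, was higher at every stage of pregnancy. Its levels were 1.27, 0.75, 1.30 and 1.40 in the cyclic group, 2.35, 2.38, 2.59 and 2.15 on days 20-25, 2.68, 2.49, 2.71 and 2.86 on days 40-45, and 3.19, 2.51, 3.14 and 3.49 on days 150-160. No pregnant cow overlapped a cyclic cow, as was so, in the rising direction, for 5.75%, 5.12% and 6.64% of all tested probes at the 3 stages in order. The change from cyclic cows was 1.19 on days 20-25 (SE 0.20, 2.28-fold, adjusted p = 0.0297, limma). It was 1.51 on days 40-45 (2.84-fold, adjusted p = 0.00223) and 1.91 on days 150-160 (3.75-fold, adjusted p = 9e-05). In each comparison the exact permutation test over 8 cows gave p = 0.0286, the smallest it can give.

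The timing of the IGFBP6 rise was read from the neighbouring stages. Days 40-45 exceeded days 20-25 by 0.31 (adjusted p = 0.673), and days 150-160 exceeded days 40-45 by 0.40 (adjusted p = 0.572), so neither step was called. The cow of the later stage was the higher one in 15 and 13 of 16 pairs (exact permutation test, p = 0.0571 and 0.114). Days 150-160 exceeded days 20-25 by 0.71 (adjusted p = 0.0889), and this passed the threshold when arrays were weighted by quality (0.69, adjusted p = 0.0328) and without days 150-160 replicate 2 (0.90, adjusted p = 0.0251). The call on days 20-25 was close to the threshold, while the size of the change was not set by any single cow. The call was lost without cyclic replicate 2 (1.05, adjusted p = 0.0595) or 4 (1.27, adjusted p = 0.0509), without days 20-25 replicate 1, 2 or 3 (1.20, 1.19 and 1.12, adjusted p = 0.0722, 0.0797 and 0.0865), and with only the 2 groups in the fit (1.19, adjusted p = 0.0751). Within slide 1 and slide 2 the change on days 20-25 was 1.36 and 1.02 (adjusted p = 0.349 and 0.262), and on days 40-45 it was 1.58 and 1.44 (adjusted p = 0.11 and 0.189). On days 150-160 it was 1.84 and 1.97 and was called within both slides (adjusted p = 0.0356 and 0.0496).

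IGFBP5, which also binds extracellular matrix, fell in established pregnancy. Its levels were -1.82, 0.26, -0.10 and -0.45 in the cyclic group, -2.20, -1.90, -2.28 and -0.93 on days 20-25, -3.53, -2.48, -2.37 and -1.99 on days 40-45, and -2.71, -2.20, -1.81 and -2.55 on days 150-160. Cyclic replicate 1 lay with the pregnant cows, below the other cyclic cows. The change from cyclic cows was -1.30 on days 20-25 (SE 0.44, adjusted p = 0.207), which did not pass. It was -2.06 on days 40-45 (4.18-fold lower, adjusted p = 0.0357), with no overlap between groups, as for 4.56% of all tested probes in the falling direction.

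On days 150-160 the change of IGFBP5 was -1.79 (3.46-fold lower, adjusted p = 0.0222). The pregnant cow was the higher one in 1 of 16 pairs, and the exact permutation test gave p = 0.0571. IGFBP5 was not called between any stages of pregnancy. Days 40-45 minus days 20-25 was -0.76 (adjusted p = 0.648), and days 150-160 minus days 40-45 was 0.28 (adjusted p = 0.928). Days 150-160 minus days 20-25 was -0.49 (adjusted p = 0.669). Both calls against cyclic cows were close to the threshold. The call on days 40-45 was lost without any of cyclic replicates 2, 3 and 4 (adjusted p = 0.101, 0.0622 and 0.076), days 40-45 replicates 1, 2 and 3 (adjusted p = 0.111, 0.0781 and 0.0657), days 20-25 replicate 2 (adjusted p = 0.0532) and days 150-160 replicate 2 (adjusted p = 0.05). The call on days 150-160 was lost without cyclic replicate 2 or 4 (adjusted p = 0.0588 and 0.0534) or days 150-160 replicate 1 or 4 (adjusted p = 0.0583 and 0.0528). With only the 2 groups in the fit both calls were lost (adjusted p = 0.104 on days 40-45 and 0.0662 on days 150-160), and with no filter on dim probes that on days 40-45 was lost (adjusted p = 0.0509). Within slide 1 and slide 2 the change was -2.23 and -1.90 on days 40-45 (adjusted p = 0.272 and 0.369), and -1.67 and -1.91 on days 150-160 (adjusted p = 0.216 and 0.221).

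IGFBP2, a binding protein of both IGFs, rose late and unevenly. Its levels were -5.69, -5.01, -5.05 and -4.98 in the cyclic group, -5.78, -5.45, -1.56 and -5.04 on days 20-25, -3.62, -4.22, -5.47 and -3.70 on days 40-45, and 1.13, -3.99, 0.35 and 1.27 on days 150-160. High levels were seen in 3 of 4 cows on days 150-160 and, to a lesser extent, in replicate 3 of days 20-25, while replicate 2 of days 150-160 lay within the range of days 40-45. The SD over the 4 cows was 2.48 on days 150-160 and exceeded that of 99.9% of tested probes, and on days 20-25 it was 1.95 and exceeded that of 99.2%.

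Despite this spread IGFBP2 was called on days 150-160, where the change from cyclic cows was 4.87 (SE 1.05, adjusted p = 0.0126). The groups did not overlap, as for 6.64% of all tested probes in the rising direction. The change is 29.3-fold, with a 95% confidence interval of 6.18 to 139, and ranked 8 among the rises of all probes in that comparison. The cyclic signals were dim, at 60.9 to 97.1 units, though well above background on every array. The size of the fold therefore depends on how background is removed. With normexp background correction the change was 4.08 (adjusted p = 0.0111). With each of the 16 arrays left out in turn the call held, with changes of 4.35 to 6.10 and adjusted p between 0.00111 and 0.0365. Within slide 1 and slide 2 the change was 3.92 and 5.83 (adjusted p = 0.187 and 0.141). The earlier changes were 0.73 on days 20-25 (95% confidence interval -1.52 to 2.97, adjusted p = 0.78) and 0.93 on days 40-45 (-1.32 to 3.18, adjusted p = 0.772). All these intervals use a spread shared by the 4 groups, whose SDs ran from 0.34 in cyclic cows to 2.48 on days 150-160. They are too wide to set a bound near no change. With only the 2 groups in the fit the SE on days 40-45 was 0.40 in place of 1.05 (limma, adjusted p = 0.316). There the pregnant cow was the higher one in 13 of 16 pairs. The value on days 20-25 was carried by replicate 3 and turned to -0.24 without it; it was 0.16 with array weights, and -0.27 and 1.72 within slide 1 and slide 2. The value on days 40-45 was 1.43 and 0.43 within the slides.

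Whether IGFBP2 was called between stages depended on single cows and on array weights. Days 150-160 exceeded days 40-45 by 3.94 (adjusted p = 0.208), or by 5.17 without days 150-160 replicate 2 (adjusted p = 0.029). Days 150-160 exceeded days 20-25 by 4.15 (adjusted p = 0.0635), or by 5.11 without days 20-25 replicate 3 (adjusted p = 0.0176) and by 5.37 without days 150-160 replicate 2 (adjusted p = 0.00764). With array weights and all cows it was 4.50 (adjusted p = 0.0206).

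**Figure D2:**
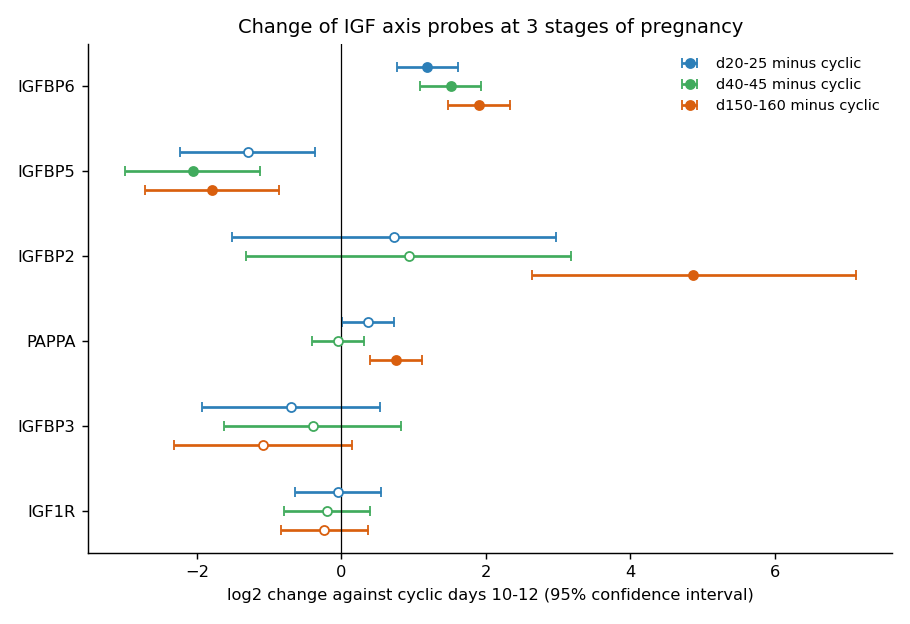
Log2 change of 6 IGF axis probes against cyclic cows on days 20-25, 40-45 and 150-160 of pregnancy, with 95% confidence intervals (n = 4 per group); filled points passed an adjusted p of 0.05. IGFBP6 lies right of 0 at all 3 stages, IGFBP5 left of it, and IGFBP2 has the largest change and the widest intervals.

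IGFBP3, the main carrier of IGFs in blood, did not pass in any comparison. Its levels were -1.81, -0.31, 0.54 and -1.17 in the cyclic group, -1.05, -1.57, -1.97 and -0.96 on days 20-25, -0.84, -0.60, -1.33 and -1.59 on days 40-45, and -1.83, 0.02, -2.15 and -3.13 on days 150-160. All groups overlapped. The changes from cyclic cows were -0.70, -0.40 and -1.08 at the 3 stages in order (adjusted p = 0.589, 0.836 and 0.278). Their 95% confidence intervals were -1.93 to 0.53, -1.63 to 0.83 and -2.32 to 0.15, which leave room for a 2-fold fall at each stage. Single cows moved these values: without cyclic replicate 3 they were -0.29, 0.00 and -0.68, and on days 150-160 the change was -1.68 without replicate 2 and -0.63 without replicate 4. Slide 1 and slide 2 alone gave -0.25 and -1.15 on days 20-25, 0.34 and -1.15 on days 40-45, and 0.16 and -2.32 on days 150-160, so the direction differed between slides at the later stages.

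PAPPA, the protease, rose on days 150-160. Its levels were -5.89, -5.33, -5.55 and -5.48 in the cyclic group, -5.35, -5.37, -4.98 and -5.08 on days 20-25, -5.68, -5.55, -5.80 and -5.43 on days 40-45, and -4.80, -4.93, -4.41 and -5.12 on days 150-160. The cows on days 150-160 lay above all cyclic cows, as for 6.64% of all tested probes, and above all cows on days 40-45. The probe was dim, though well above background on all 16 arrays. Before scaling to the percentile its signals overlapped. They were 62.2 to 126 units on days 150-160, 43.2 to 78.0 in cyclic cows and 48.9 to 67.2 on days 40-45. The change from cyclic cows was 0.75 on days 150-160 (SE 0.17, 1.68-fold, adjusted p = 0.0157), 0.37 on days 20-25 (adjusted p = 0.345) and -0.05 on days 40-45 (adjusted p = 0.939).

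The PAPPA call on days 150-160 held with each of the 16 arrays left out, with adjusted p between 0.0123 and 0.0427. It was lost with normexp background correction (0.54, adjusted p = 0.0646) and with only the 2 groups in the fit (0.75, adjusted p = 0.0945), and within slide 1 and slide 2 the change was 0.75 and 0.75 (adjusted p = 0.125 and 0.371). Between stages, days 150-160 minus days 40-45 was 0.80 (adjusted p = 0.118) and days 40-45 minus days 20-25 was -0.42 (adjusted p = 0.514). In both of these the groups did not overlap, which held for 4.11% of all tested probes in the rising direction and 6.28% in the falling direction of those comparisons. Days 150-160 minus days 20-25 was 0.38 (adjusted p = 0.33).

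**Figure D3:**
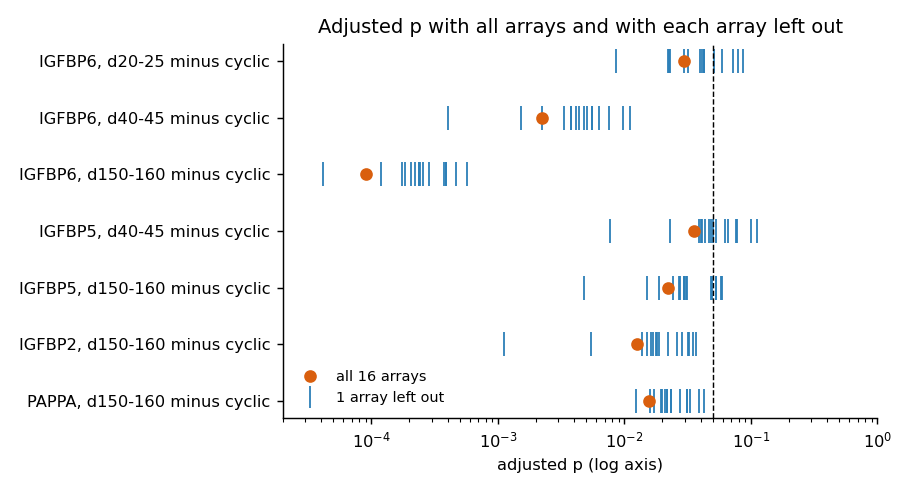
Adjusted p of the 7 called results of IGF axis probes, with all 16 arrays (circles) and with each array left out in turn (ticks), on a log axis; the dashed line is 0.05. Ticks cross the line for IGFBP6 on days 20-25 and for both IGFBP5 results, and stay left of it for IGFBP6 on days 40-45 and 150-160, IGFBP2 and PAPPA.

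IGF1, the ligand, gave signals below or near the limit of detection on both of its probes. Its dimmer probe was well above background on 0 of 16 arrays. Its brighter probe was so on 3 of 16: cyclic replicate 2, days 20-25 replicate 1 and days 150-160 replicate 2. The lowest signal well above background lay between -7.12 and -6.20 on the arrays, so neither probe detected its transcript on most of them, and no fold is given. IGF1 transcripts that carry neither probe sequence were not measured, so absence of IGF1 is not shown. With the filter on dim probes left off, neither probe was called in any comparison (lowest adjusted p = 0.203), but most of those values lie at the background.

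**Figure D4:**
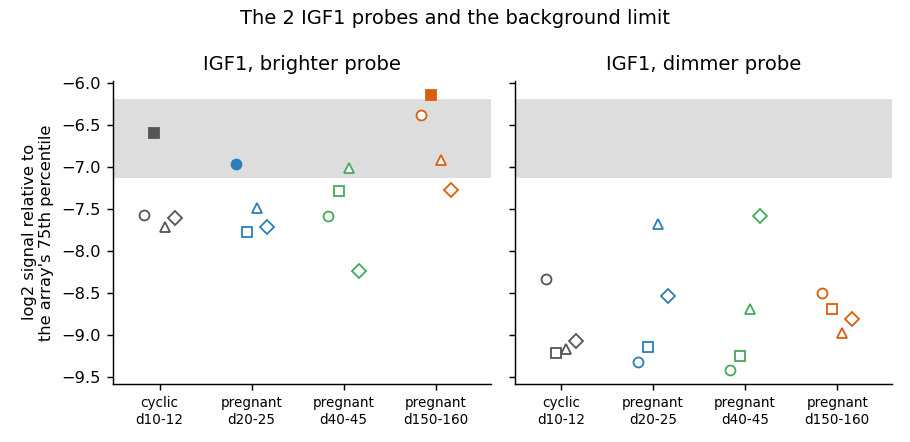
Log2 signal relative to the array's 75th percentile of both IGF1 probes in 16 cows; filled symbols are well above background, and the grey band spans the lowest signal well above background over the 16 arrays (-7.12 to -6.20). The dimmer probe lies below the band in every cow.

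IGF1R did not pass in any comparison. Its levels were -2.73, -1.32, -2.52 and -1.92 in the cyclic group, -2.54, -2.29, -1.97 and -1.87 on days 20-25, -2.57, -2.36, -2.18 and -2.17 on days 40-45, and -2.95, -2.34, -2.21 and -1.96 on days 150-160. The changes from cyclic cows were -0.05, -0.20 and -0.24 at the 3 stages in order (adjusted p = 0.955, 0.836 and 0.656). Their 95% confidence intervals were -0.65 to 0.55, -0.80 to 0.40 and -0.84 to 0.36, each within a 2-fold change in either direction. Slide 1 and slide 2 alone gave -0.39 and 0.30, -0.44 and 0.04, and -0.62 and 0.13, and without cyclic replicate 2 they were 0.22, 0.07 and 0.02.

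Other genes of the IGF system were read from a list of 18, of which 9 were on the array and 8 were tested. On days 150-160, 1 of 8 was higher and 1 lower than in cyclic cows, where 7.98% of all tested probes were called in either direction, with a median change of 0.39 against 0.03 over all tested probes. IGF2, the second ligand, was the lower one. Its levels were -1.51, -2.47, -2.72 and -1.37 on days 150-160, against 0.53, -0.13, -0.28 and -0.14 in cyclic cows. The groups did not overlap, as for 5.08% of all tested probes in the falling direction, and the change was -2.01 (SE 0.32, adjusted p = 0.00208). Within slide 1 and slide 2 it was -2.19 and -1.83 (adjusted p = 0.0408 and 0.245). IGF2 was also lower than on days 20-25, with a change of -1.46 (adjusted p = 0.032) that was -1.72 and -1.20 within the slides (adjusted p = 0.145 and 0.512) and was not called with only the 2 groups in the fit (adjusted p = 0.12). The call was also lost in 5 of 16 repeats with 1 array left out: days 20-25 replicates 1, 2 and 4 (adjusted p = 0.103, 0.11 and 0.0771) and days 150-160 replicates 2 and 3 (adjusted p = 0.105 and 0.0779). At the earlier stages IGF2 levels were -0.31, -0.23, -1.34 and -0.35 on days 20-25, and -1.06, -1.09, -1.58 and -1.25 on days 40-45. IGF2 was not called against cyclic cows at either of these stages. On days 40-45 its levels nevertheless lay below those of all cyclic cows, as for 4.56% of all tested probes.

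IGFALS, the subunit that joins IGFBP3 or IGFBP5 and an IGF in a ternary complex, was the higher one. Its levels were -1.50, -0.50, -1.80 and -1.29 on days 150-160, against -2.88, -2.68, -3.03 and -2.67 in cyclic cows. The change was 1.54 (adjusted p = 0.0401), and the call was lost in 10 of 16 repeats with 1 array left out, with the highest adjusted p, 0.115, without days 150-160 replicate 2. It was also lost with no filter on dim probes (adjusted p = 0.0518), and within slide 1 and slide 2 the change was 1.78 and 1.30 (adjusted p = 0.0527 and 0.439). The remaining genes that were tested, IGF2R, INS, INSR, GHR, IGFBP4 and STC1, were not called. STC1, an inhibitor of PAPPA, gave changes of 1.23 and 1.29 on its 2 probes on days 150-160 (adjusted p = 0.226 and 0.329), and IGFBP4, the best known substrate of PAPPA, gave 0.41 (adjusted p = 0.446).

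Of 6 proteases known to cut IGFBPs, 5 were tested. ADAM12, which cuts IGFBP3 and IGFBP5, was lower on days 150-160, at -3.24, -4.53, -3.56 and -4.92, against -2.71, -2.33, -2.12 and -2.53 in cyclic cows. The groups did not overlap, as for 5.08% of all tested probes in the falling direction. The change was -1.64 (SE 0.34, adjusted p = 0.00984) against cyclic cows and -2.01 (adjusted p = 0.0075) against days 20-25. Within slide 1 and slide 2 these were -1.37 and -1.91 (adjusted p = 0.142 and 0.266), and -1.75 and -2.27 (adjusted p = 0.198 and 0.292). MMP2, a gelatinase, was lower on days 150-160 than on days 20-25, with a change of -1.59 (adjusted p = 0.0095) that was -0.96 and -2.21 within the slides (adjusted p = 0.135 and 0.187). With only the 2 groups in the fit these calls were lost for ADAM12 (adjusted p = 0.0523 against cyclic cows and 0.0528 against days 20-25) and for MMP2 (adjusted p = 0.0698). The median change of the list on days 150-160 against cyclic cows was -0.36. Of 33 genes that carry the signal from IGF1R, 14 were tested and limma called 0 in any of the 6 comparisons (0 to 3 at an unadjusted p under 0.05), with changes on days 150-160 against cyclic cows between -0.25 and 0.56.

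**Figure D5:**
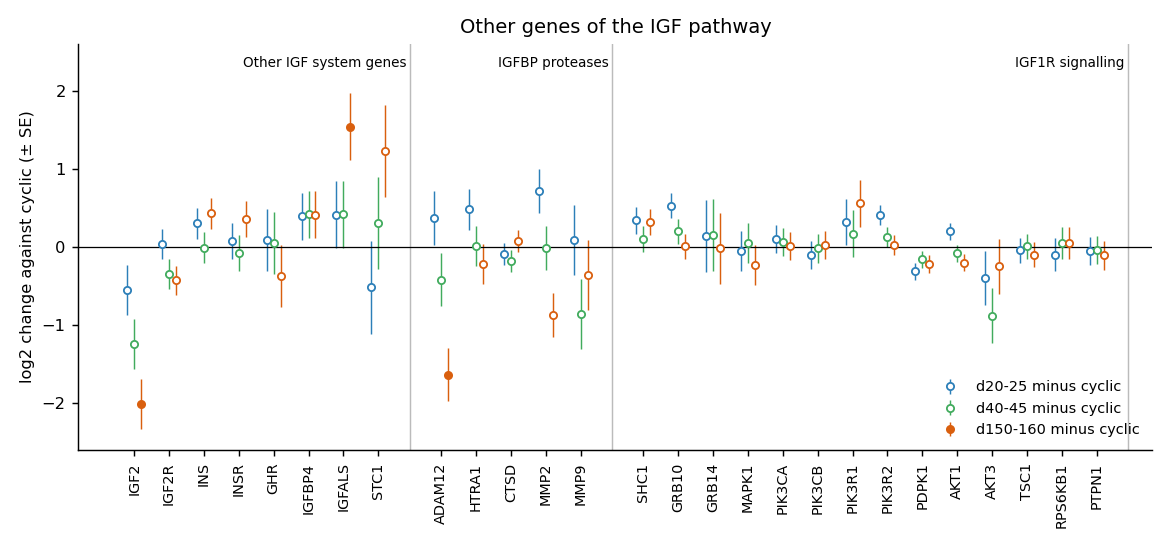
Log2 change (± SE) against cyclic cows on days 20-25, 40-45 and 150-160 of the other tested genes of the IGF system, IGFBP proteases and IGF1R signalling genes; filled points passed an adjusted p of 0.05. IGF2 (-2.01) and ADAM12 (-1.64) are lower and IGFALS (1.54) is higher on days 150-160.

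The glands were measured whole, so fewer cells of a type and less RNA per cell cannot be told apart. Some markers of endothelial cells, fibroblasts and macrophages moved on days 150-160 together with IGFBP2, IGFBP5, IGFBP6 and PAPPA, where 7.98% of all tested probes were called. Markers of granulosa and follicle cells, pericytes and smooth muscle, T cells and epithelium had 0 called in any comparison, over 6, 3, 4 and 3 tested genes. Their median changes on days 150-160 against cyclic cows were -0.32, 0.56, 0.30 and -0.51 in that order. Of 8 endothelial markers 2 were called higher, TEK by 0.85 (adjusted p = 0.035) and ENG by 1.13 (adjusted p = 0.0147). The change was positive for 7 of 8, and the lowest was -0.51. The summed linear level of the list, in which bright probes weigh most, was 19.0 to 34.3 on days 150-160, against 11.9 to 19.5 in cyclic cows. The mean log2 deviation, in which each gene weighs the same, was -0.31 to 0.80, against -0.34 to -0.07, so these groups overlapped. Of 6 tested markers of fibroblasts and matrix cells 3 were lower, with COL1A2 at -2.72 (adjusted p = 0.00145), COL1A1 at -1.63 (adjusted p = 0.0472) and COL3A1 at -1.13 (adjusted p = 0.0326), and the summed level was 31.2 to 43.6 on days 150-160, against 47.1 to 73.4 in cyclic cows. Of 4 tested macrophage markers 2 were lower, CD68 at -1.57 (adjusted p = 0.00277) and MRC1 at -1.03 (adjusted p = 0.0217), with a summed level of 0.886 to 1.62 on days 150-160, against 1.56 to 3.43 in cyclic cows. In the mean log2 deviation, fibroblast markers were -1.19 to -0.44 on days 150-160, against -0.21 to 0.67 in cyclic cows. Macrophage markers were -0.60 to 0.09, against 0.15 to 1.31. None of the endothelial, fibroblast or macrophage markers on the array was at background on every array. Markers also moved at earlier stages, beside the IGFBP6 and IGFBP5 calls. The summed endothelial level was 20.8 to 26.8 on days 20-25, against 11.9 to 19.5 in cyclic cows, with 0 of 8 genes called by limma (3 at an unadjusted p under 0.05). On days 40-45 it was 17.7 to 23.0, with changes of single genes between -0.89 and 0.75. The mean log2 deviation of the endothelial list was 0.03 to 0.30 on days 20-25 and -0.17 to 0.02 on days 40-45, against -0.34 to -0.07 in cyclic cows. The summed macrophage level was 0.937 to 1.20 on days 40-45, against 1.56 to 3.43 in cyclic cows. Of its 4 genes 1, CD68, was lower by a change of -1.32 (adjusted p = 0.0223), where 1.23% of all tested probes were called. The summed macrophage level on days 20-25 was 1.51 to 1.73. The summed level of fibroblast and matrix markers was 60.6 to 80.4 on days 20-25 and 46.8 to 66.5 on days 40-45, against 47.1 to 73.4 in cyclic cows, with 0 of 6 called by limma at either stage (0 at an unadjusted p under 0.05). The part of these cell types in the changes of the IGF axis genes was not tested.

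The array with the highest 75th percentile, cyclic replicate 1, was the lowest of its group for 5 of 6 tested IGF axis probes, all but IGFBP6. Without it the 7 called results against cyclic cows stayed called. The change of IGFBP5 was then -1.73 on days 20-25 (adjusted p = 0.0512), -2.49 on days 40-45 (adjusted p = 0.00772) and -2.22 on days 150-160 (adjusted p = 0.00482).

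The genes whose levels over the 16 arrays ran most like each called gene were found among 5785 probes by Pearson correlation, as a description that includes the differences between stages. For IGFBP6 they were HLF, a circadian transcription factor (r = 0.916), RRAS, a small GTPase (r = 0.911), and SLC26A10 (r = 0.89). For IGFBP5 they were COTL1, an actin-binding protein (r = 0.905), RNF10 (r = 0.873) and PKIB, an inhibitor of protein kinase A (r = 0.852). For IGFBP2 they were TMEM150C (r = 0.864), EPAS1, a hypoxia-responsive transcription factor (r = 0.833), and SPATC1L (r = 0.827). For PAPPA they were AOAH (r = 0.88), ADAM15 (r = 0.875) and FGFR1, a fibroblast growth factor receptor (r = 0.865).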

How the data were processed

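Per the labels, total RNA was amplified, labelled with Cy3 and hybridised to 1-colour arrays. Scans were read with Agilent Feature Extraction 9.5, per the submitters' processing notes. The authors deposited linear-scale intensities from which background and spatial trend had been subtracted, per the file headers. The deposited value table is on a log2 scale; its columns equal log2 of that intensity minus a constant near the log2 75th percentile, with a largest departure of 0.0046 and column medians of -3.18 to -2.98, and it was used as an alternative only. Here 536 control spots were left out and 220 spots with outlier flags set to missing. Log2 intensities minus each array's 75th percentile were fitted with limma 3.58.1 (lmFit, eBayes) in R 4.3.3, with 1 coefficient for each group of all 16 arrays (residual degrees of freedom 12, prior 2.77), and two-sided tests adjusted by Benjamini-Hochberg over the probes tested. Tested probes had an unflagged signal well above background in 3 or more of the 4 cows of some group; 11940 probes entered comparisons of days 150-160. Probes were named from the files through RefSeq genes of ARS-UCD2.0, which gave 7045 probes a symbol and left 8163 without. A gene with several probes was represented by 1 in its list. All 7 genes are named in every comparison; of the other IGF genes, those called are named, and any others named were chosen after their values were seen. Likeness was ranked by Pearson correlation, taking the 3 highest genes with a symbol for each called gene. Members and lists were chosen with earlier results of these data known. The fit was checked on simulated data. Having 4 arrays in a group limits the precision of these values. The separate animals are given by the labels.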

Additional observations from a re-analysis of the deposited data

Results flagged for a closer look

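Of 24 groups of 4 levels checked with Dixon's test for a single far value, 1 exceeded its 95% limit, and chance flags about 1 in 20 groups. It was IGFBP2 in cyclic cows, where replicate 1 lay at -5.69 and the others between -5.05 and -4.98, a ratio of gap to range of 0.897. The change of IGFBP2 on days 150-160 was called with that array and without it.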

How the results depend on the processing

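Of 1254 changes of the IGF axis probes and called list genes recomputed under alternatives, 1179 kept their direction and side of the threshold, 67 fell below it, 8 passed it and 0 reversed as called values, while 30 uncalled changes changed sign. The counts of probes called moved by over 1.5 times as follows. Days 20-25 against cyclic cows (35) gave 78 with slide as a block, 3 and 6 within slides 1 and 2, 2 with only the 2 groups in the fit and 126 with array weights. Days 40-45 against cyclic cows (147) gave 94 with normexp, 90 with no filter, 51 and 12 within slides, 73 with 2 groups and 262 with weights. Days 150-160 against cyclic cows (953) gave 250 and 21 within slides, 314 with 2 groups and 565 with weights. Days 40-45 against days 20-25 (4) gave 8 with no filter, 1 with probes bright on all arrays, 7 with slide as a block, 0 and 0 within slides, 7 with 2 groups and 186 with weights. Days 150-160 against days 40-45 (5) gave 9 with the value table, 17 with no filter, 2 with probes bright on all arrays, 9 with dim values raised, 13 with slide as a block, 1 and 0 within slides, 1 with 2 groups and 24 with weights. Days 150-160 against days 20-25 (187) gave 3 and 7 within slides, 118 with 2 groups and 639 with weights. The F test (460) gave 42 and 12 within slides. IGF axis probes called against cyclic cows on days 20-25, 40-45 and 150-160 (1, 2 and 4) numbered 0, 0 and 1 within either slide and 0, 1 and 2 with 2 groups; no filter gave 1 on days 40-45, and weights gave 2 for days 150-160 against days 20-25. Leaving out 1 array gave 4 to 85, 63 to 226, 580 to 1106, 0 to 8, 2 to 19 and 88 to 243 probes in the 6 comparisons in that order, and 267 to 503 for the F test; IGF axis probes ranged over 0 to 1, 1 to 2, 3 to 4, 0 to 0, 0 to 1 and 0 to 2. Replicate numbers were not taken as pairing: cows with the same number correlated at 0.001 to 0.291 over 24 pairs of deviations from group means. Cows with different numbers correlated at -0.327 to 0.271 over 72 pairs. The median was 0.082 for cows on the same slide, which included all those with the same number, and -0.091 for cows on different slides. The main fit had no term for slide. With the replicate block 0 probes were called between days 40-45 and 20-25 and 14 between days 150-160 and 40-45, and no call of an IGF axis probe changed. Within a slide 2 arrays per group remain, which limits those tests by construction; for the other shifts the cause was not tested.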
